A study of Mus musculus with 9 samples.

Results

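The genes described here are 41 transcription factors, signalling genes and markers of the first embryonic lineages, chosen by name and matched by symbol: 16 of primitive streak and mesoderm, 8 of endoderm, 7 of trophoblast, 5 of the neural lineage, and 5 T-box and Hox genes. The choice was made with earlier results of these data known, so counts of members called are no independent support. Of the 41, 40 matched one of the 37310 gene rows. Sox1 did not and is not analysed here. The libraries came from mouse E14 embryonic stem (ES) cells, a line widely used for gene targeting, kept without feeder cells in medium with serum and the cytokine LIF. The 9 libraries fell into 3 groups of 3. The libraries labelled Zbtb11 KO came from cells with loxP-flanked (floxed) Zbtb11 alleles, genotype Zbtb11 lox/lox, and an ERt2-Cre gene at Rosa26, kept for 72 h with 4-hydroxytamoxifen (4OHT) at 250 nM, which switches ERt2-Cre on. The 4OHT control was Zbtb11 WT/WT, Rosa26 WT, so it carried neither loxP sites nor Cre, and had the same 4OHT treatment. The ethanol control was the Zbtb11 lox/lox, Rosa26 ERt2-Cre line given only ethanol, the carrier. The labels give no clone number, and they do not say whether replicates were separate cultures. The p-values set the difference between groups against the spread of libraries within a group. How much of that spread lies between cultures is not known, and it may be technical.

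ES cells in serum and LIF are pluripotent, and genes of the later lineages are mostly silent or expressed at low levels in them, often under Polycomb repression or with poised promoters. When the cells leave this state, primitive streak factors such as T, Mixl1 and Eomes mark the entry to mesoderm and endoderm, Gata6, Gata4 and Sox17 mark primitive and definitive endoderm, Cdx2, Elf5 and Tfap2c act in the trophoblast, and Pax6 and Sox1 in the neural lineage. Hox genes are switched on in chromosomal order along the body axis, with the posterior genes of each cluster coming last. Because few of these genes are abundant in ES cells, raw counts are given throughout, next to counts scaled to library size (CPM) with edgeR's TMM factors.

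Gene counts summed to between 16909139 and 23544893 per library. All 12 ES cell markers were present in every library with at least 2359 counts, and their summed level was 4669 to 5036 CPM in the KO-labelled libraries, 5018 to 5774 CPM in the 4OHT control and 4989 to 5273 CPM in the ethanol control. In the KO-labelled libraries none of the 12 rose and 2 fell against the ethanol control (adjusted p under 0.05), beside 13.0% and 14.2% of all genes. Against the 4OHT control none rose and 5 fell, beside 19.1% and 19.8%. In the 4OHT control against the ethanol control 3 rose and 1 fell, beside 9.66% and 8.75%. Zbtb11 itself averaged 377 CPM in the KO-labelled libraries, 368 CPM in the 4OHT control and 355 CPM in the ethanol control, so the gene-level count shows no loss in the libraries labelled KO. Which exons are floxed is not stated, and the count therefore tests neither the grouping nor whether protein was lost. The share of reads assigned to no gene was 32.7% to 33.8% in the KO-labelled libraries, 26.7% to 27.5% in the 4OHT control and 26.4% to 28.7% in the ethanol control. KO-labelled replicate 3 stood apart from its group: its counts differed from those of replicates 1 and 2 with a chi-square per degree of freedom of 15.6 and 16.7, against 5.75 between replicates 1 and 2 and 4.98 to 7.55 between the libraries of each control.

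Most members were detected at low counts. Over the 40 matched members and 9 libraries, 1 value was 0 (Mesp1 in 4OHT control replicate 1) and the highest was 1504 (Tfap2c). A mean count under 10 was found for 9 members and one over 100 for 8. Per kilobase of exon, the highest mean level over all libraries was 16.2 CPM per kb for Tfap2c, followed by 8.74 for Neurod1, 7.35 for Bmp4, 5.63 for Nes and 4.79 for Krt8, and no other member exceeded 1.55 (Pax6). The lowest was Foxa2 at 0.069 CPM per kb. After edgeR's filter on low counts 36 members were tested, and Mesp1, Evx1, Lhx1 and Foxa2 were not. The filter asked for about 10 counts, or 0.468 CPM, in 3 libraries; 24 members were above this in all 9, and Sox17 and Elf5 passed only through the KO-labelled libraries.

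**Figure D1:**
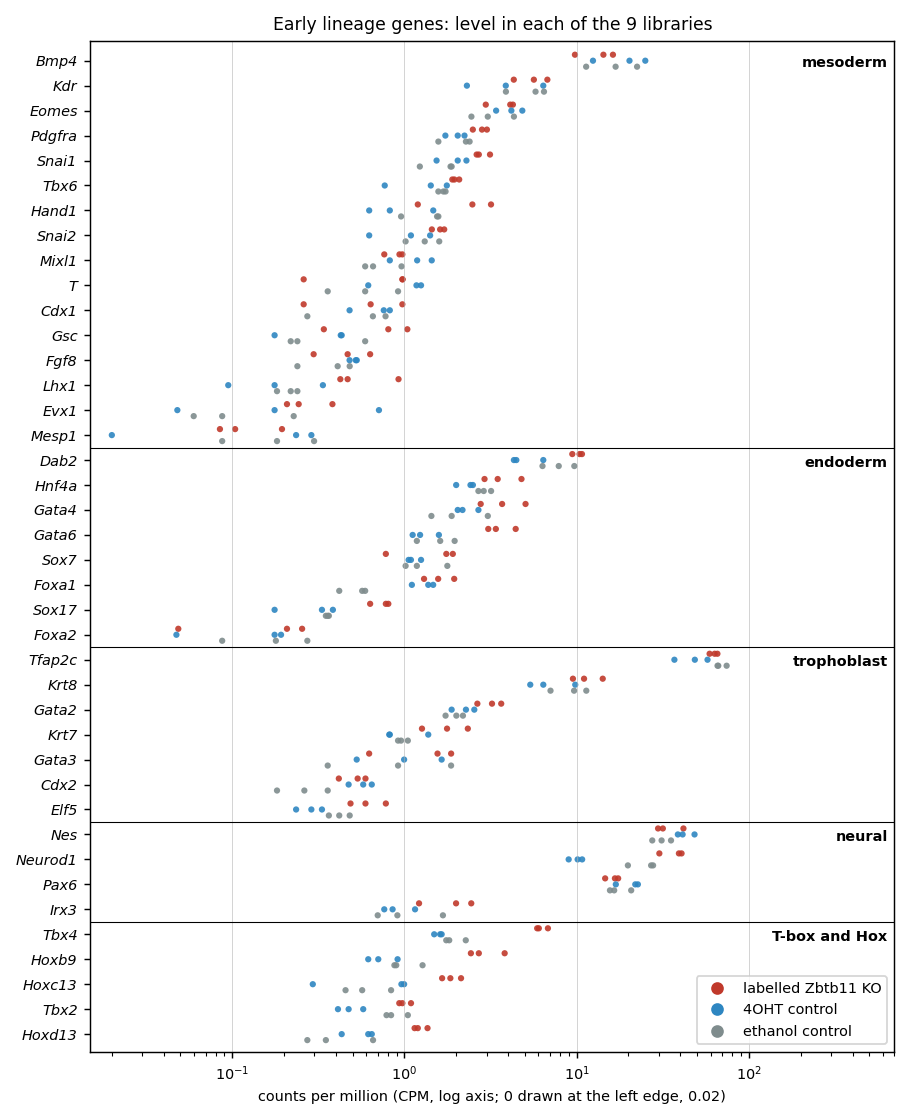
CPM (log axis) of the 40 matched members in each library, by lineage, with the KO-labelled libraries drawn above the 4OHT control and the ethanol control in each row. Tfap2c, Nes, Neurod1, Pax6, Bmp4, Krt8 and Dab2 lie to the right, and in the T-box and Hox block the KO-labelled points of Tbx4, Hoxb9, Hoxc13 and Hoxd13 lie to the right of both controls.

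Tbx4, Hoxb9, Hoxc13, Hoxd13, Gata6 and Neurod1 rose in the KO-labelled libraries against both controls, by 0.56 to 2.00 on the log2 scale, and stayed called under every alternative that was run. For Neurod1 the controls themselves differed, with the 4OHT control at −1.31 against the ethanol control. T, Mixl1 and Eomes, the defining genes of the primitive streak, were not called in any comparison. Against the ethanol control, the same line without 4OHT, 12 of the 36 tested members rose and none fell at an adjusted p (FDR) under 0.05; of all 16224 genes tested, 13.0% rose and 14.2% fell. Those that rose were 1 of 13 tested mesoderm genes, 4 of 7 endoderm genes, 2 of 7 trophoblast genes, 1 of 4 neural genes and 4 of 5 T-box and Hox genes. Against the 4OHT control, a different line with the same drug, 18 members rose and 1 fell, where 19.1% and 19.8% of all genes did. By lineage these rises were 1 of 13 in mesoderm, 5 of 7 in endoderm, 5 of 7 in trophoblast, 2 of 4 in neural genes and 5 of 5 in T-box and Hox genes. Both endoderm counts include Sox17, and the trophoblast count against the 4OHT control includes Elf5. These genes passed the filter only through the KO-labelled libraries, so their rises are no support. With the replicate number as a block, 3 mesoderm genes rose against the ethanol control and 7 against the 4OHT control. Endoderm then gave 5 and 5, trophoblast 3 and 5, neural 2 and 2, and T-box and Hox genes 4 and 5. The shares of all genes were then 20.4% and 25.5%, and Sox17 and Elf5 are again among the members counted. The median log2 fold change of the tested members was 0.39 against the ethanol control and 0.61 against the 4OHT control, beside 0.01 and 0.02 over all genes tested. The comparisons share the KO-labelled libraries, so the second is not independent of the first. Because the members were chosen with earlier results of these data known, their counts and medians beside those of all genes are no test. In the 4OHT control against the ethanol control, 2 members rose and 3 fell, beside 9.66% and 8.75% of all genes (5 called, beside 18.4%); line and drug differ together there and cannot be told apart. Over both directions 27.2% of all genes were called against the ethanol control and 38.9% against the 4OHT control.

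Low-level genes as a class were shifted upward in the KO-labelled libraries, and most members are low-level genes. The 5117 tested genes with a mean under 4 CPM, a limit chosen after the data were seen, had a median log2 fold change of 0.22 against the ethanol control, with 13.6% called higher and 2.68% lower; the 11107 genes above it had a median of −0.03, with 12.7% called higher and 19.5% lower. Against the 4OHT control the low-level genes had a median of 0.23, with 19.0% called higher and 7.54% lower, beside 19.2% and 25.5% of the genes above the limit. In the 4OHT control against the ethanol control their median was 0.01. Of the 36 tested members, 28 fell in this range: 11 of them rose against the ethanol control, with a median log2 fold change of 0.71, and 14 rose against the 4OHT control, with a median of 0.65. Of the other 8, 1 rose against the ethanol control, with a median of 0.09, and 4 rose and 1 fell against the 4OHT control, with a median of 0.40. The number of genes with at least 1 count was 22967 to 23746 in the KO-labelled libraries, 22012 to 22792 in the 4OHT control and 21940 to 22863 in the ethanol control. The part of this shift, and of the larger share of unassigned reads, in the members' rises was not tested. In bulk RNA, more cells of a type and more RNA per cell cannot be told apart.

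**Figure D2:**
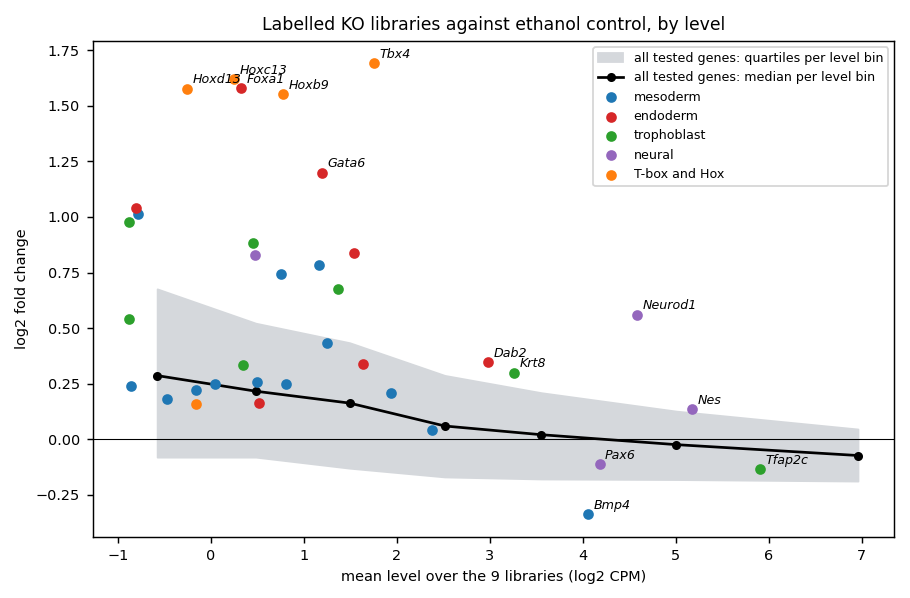
Log2 fold change of the KO-labelled libraries against the ethanol control (vertical axis) by mean level (log2 CPM, horizontal axis); the line and band give the median and quartiles of all 16224 tested genes per level bin and the points are the 36 tested members. The line lies above 0 at the low end, with a median of 0.29 in the lowest bin, and Tbx4, Hoxb9, Hoxc13, Hoxd13, Foxa1 and Gata6 lie above the band.

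The KO-labelled libraries lay above all 3 ethanol control libraries for 15 of the 36 tested members, and below them for 1 (Tfap2c), where 21.3% and 20.5% of all tested genes did so. Against the 4OHT control all 3 lay above for 19 members and below for none, where 24.5% and 23.7% of all genes did. In the 4OHT control against the ethanol control 3 lay above and 6 below, beside 18.1% and 17.0%. Sox17 and Elf5, which passed the filter only through the KO-labelled libraries, had to differ and are among those above both controls; without them 13 of 34 and 17 of 34 lay above, and 11 and 16 rose. The share of all genes that rose against both controls was not computed, so the next count has no background beside it. A rise was found in 10 members against both controls: Gata4, Gata6, Sox17, Gata2, Krt7, Neurod1, Tbx4, Hoxb9, Hoxc13 and Hoxd13. Of these, only Neurod1 was also called in the 4OHT control against the ethanol control. Not all of these calls were equally firm. Of the 12 rises against the ethanol control, 7 (Tbx4, Hoxb9, Hoxc13, Hoxd13, Gata6, Foxa1 and Neurod1), and 7 of the 19 calls against the 4OHT control (the same genes with Dab2 in place of Foxa1) held under every alternative that was run, including each library left out. How many of all called genes held in this way was not counted, so whether these rates are usual is not known. Without KO-labelled replicate 3, the library that stood apart, 10 members were called against the ethanol control and 14 against the 4OHT control, beside 24.2% and 35.1% of all genes; without KO-labelled replicate 1 the numbers were 7 and 10, beside 19.1% and 30.7%. With the replicate number as a block, since libraries with the same number deviated together, 18 members were called against the ethanol control (17 higher, 1 lower) and 27 against the 4OHT control (24 higher, 3 lower). Of all genes, 42.8% were then called against the ethanol control (20.4% higher, 22.3% lower) and 51.4% against the 4OHT control (25.5% higher, 25.9% lower). In the 4OHT control against the ethanol control the block gave 9 members (4 higher, 5 lower), beside 32.8% of all genes (17.0% higher, 15.8% lower).

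**Figure D3:**
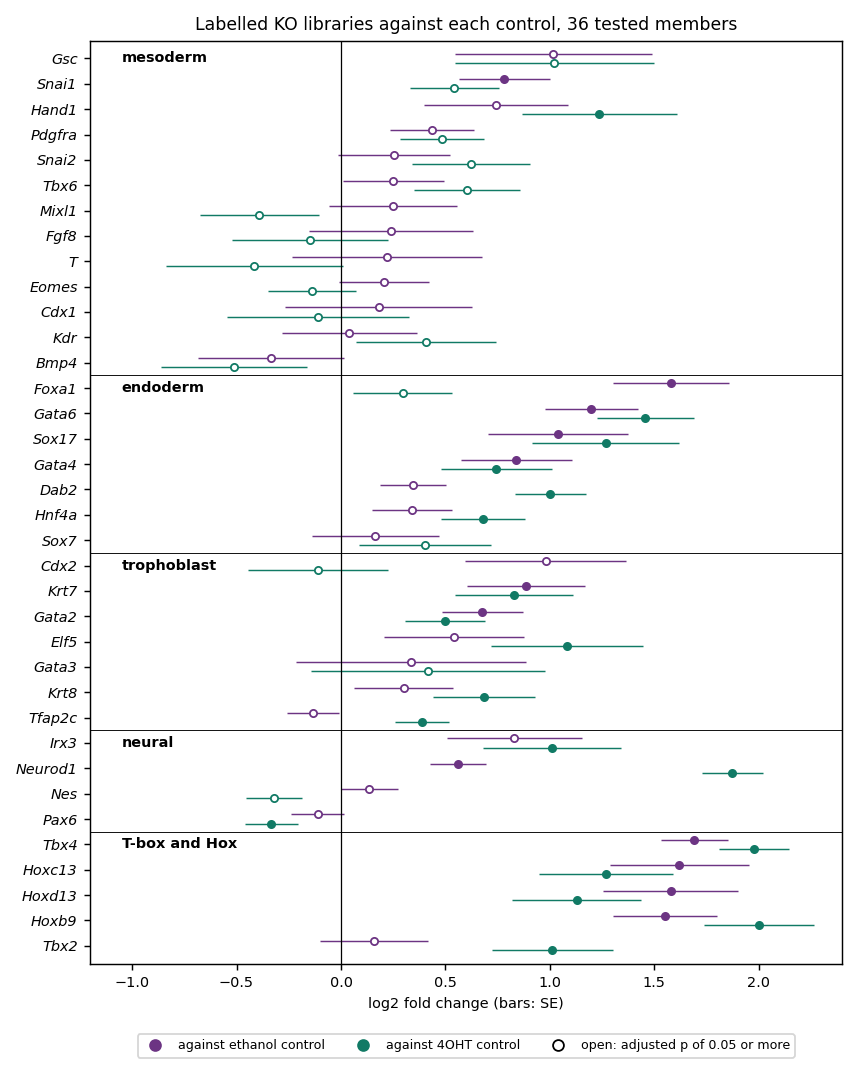
Log2 fold change with its standard error for the 36 tested members, in the KO-labelled libraries against the ethanol control (purple) and against the 4OHT control (green), by lineage; filled points passed an adjusted p under 0.05. Against the 4OHT control 5 of 7 endoderm genes, 5 of 7 trophoblast genes and all 5 T-box and Hox genes have filled points above 0, and 11 of the 13 mesoderm genes have none in either comparison. The filled endoderm and trophoblast points include Sox17 and Elf5, which passed the filter only through the KO-labelled libraries. Among all genes tested 19.1% rose against the 4OHT control. Over both directions 27.2% were called against the ethanol control and 38.9% against the 4OHT control. All points are from the fit without the replicate block.

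Promoter sequence is shown for the members whose rise against the ethanol control held under every alternative and which have an entry in the RefSeq promoter table; 28 of the 41 members have one, and Gata6, Hoxb9 and Hoxc13 have none. Each window runs from 250 bases before to 50 after the gene's start in RefSeq on GRCm38.p6, a later assembly than that of the count files (mm9). They are written 5′ to 3′ on the gene's strand, with capitals for 3 short motifs on either strand: the TATA box TATAAA, the CCAAT box CCAAT and the GC box GGGCGG. The windows lie at chr2:74667975-74668274, plus strand (Hoxd13), chr11:85896515-85896814, plus strand (Tbx4), chr12:57546062-57546361, minus strand (Foxa1) and chr2:79456587-79456886, minus strand (Neurod1).
Hoxd13: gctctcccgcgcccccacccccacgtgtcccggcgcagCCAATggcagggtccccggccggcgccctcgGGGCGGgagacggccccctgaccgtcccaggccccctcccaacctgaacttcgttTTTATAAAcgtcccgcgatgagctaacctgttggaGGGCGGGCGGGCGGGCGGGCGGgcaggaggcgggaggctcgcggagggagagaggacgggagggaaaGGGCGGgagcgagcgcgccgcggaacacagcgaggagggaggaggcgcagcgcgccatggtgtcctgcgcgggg
Tbx4: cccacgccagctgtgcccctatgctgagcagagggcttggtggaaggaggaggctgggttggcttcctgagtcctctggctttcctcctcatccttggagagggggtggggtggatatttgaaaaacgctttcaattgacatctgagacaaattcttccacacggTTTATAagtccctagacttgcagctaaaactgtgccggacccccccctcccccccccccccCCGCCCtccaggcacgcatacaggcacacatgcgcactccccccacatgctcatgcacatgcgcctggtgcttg
Foxa1: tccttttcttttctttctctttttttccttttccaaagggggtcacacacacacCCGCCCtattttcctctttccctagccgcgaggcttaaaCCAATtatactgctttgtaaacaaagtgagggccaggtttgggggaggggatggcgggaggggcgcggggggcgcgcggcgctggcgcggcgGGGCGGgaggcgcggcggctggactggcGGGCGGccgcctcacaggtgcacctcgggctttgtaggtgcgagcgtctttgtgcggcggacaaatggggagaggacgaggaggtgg
Neurod1: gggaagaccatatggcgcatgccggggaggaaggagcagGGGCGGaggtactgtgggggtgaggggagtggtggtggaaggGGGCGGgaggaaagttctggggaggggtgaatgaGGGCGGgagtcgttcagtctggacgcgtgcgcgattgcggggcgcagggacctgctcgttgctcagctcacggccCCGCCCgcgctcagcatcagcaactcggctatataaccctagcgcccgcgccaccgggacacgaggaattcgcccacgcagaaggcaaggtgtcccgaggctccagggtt
Of these windows, Hoxd13 held 37 CpG pairs and Foxa1 and Neurod1 26 each, while Tbx4 held 8; the median of 32544 such windows was 7, with quartiles of 3 and 20. A GC box was present in all of them, as in 35.9% of all windows, and in Hoxd13 most of its matches overlap one another in a single GC-rich run. The CCAAT box was in the Hoxd13 and Foxa1 windows (37.4% of all windows), and TATAAA in those of Hoxd13, where matches on both strands overlap, and Tbx4 (13.6% of all windows). These are matches of letters only, and no binding was measured.

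Among the T-box and Hox genes, Tbx4 (ENSMUSG00000000094.6), a T-box factor of the developing hindlimb and lung, was the member with the smallest p against both controls. It had 139, 124 and 131 counts (5.90, 6.03 and 6.81 CPM) in the KO-labelled libraries, against 34, 28 and 31 counts (1.61, 1.65 and 1.49 CPM) in the 4OHT control and 40, 40 and 38 counts (1.82, 1.75 and 2.27 CPM) in the ethanol control. Every KO-labelled library was above every control library. The log2 fold change was 1.69 ± 0.16 (adjusted p = 1.4e-06) against the ethanol control and 1.98 ± 0.17 (adjusted p = 2.0e-07) against the 4OHT control. Hoxb9 (ENSMUSG00000020875.8), a posterior gene of the Hoxb cluster that acts in the patterning of the thorax, had 90, 50 and 52 counts (3.82, 2.43 and 2.70 CPM) in the KO-labelled libraries, 13, 12 and 19 counts (0.617, 0.705 and 0.913 CPM) in the 4OHT control and 28, 20 and 15 counts (1.27, 0.875 and 0.896 CPM) in the ethanol control. Its groups did not overlap either, and KO-labelled replicate 1 was the highest. Its log2 fold change was 1.55 ± 0.25 (adjusted p = 2.9e-04) against the ethanol control and 2.00 ± 0.26 (adjusted p = 2.3e-05) against the 4OHT control.

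Hoxc13 (ENSMUSG00000001655.6), known for its part in hair and nail formation, had 39, 38 and 41 counts (1.66, 1.85 and 2.13 CPM) in the KO-labelled libraries, 21, 5 and 20 counts (0.996, 0.294 and 0.961 CPM) in the 4OHT control and 10, 13 and 14 counts (0.455, 0.569 and 0.837 CPM) in the ethanol control. The KO-labelled libraries were close together and above all controls, and 4OHT control replicate 2 was the lowest. This gave a log2 fold change of 1.62 ± 0.33 (adjusted p = 0.0022) against the ethanol control and 1.27 ± 0.32 (adjusted p = 0.0055) against the 4OHT control. Hoxd13 (ENSMUSG00000001819.4), which patterns the digits, had 27, 28 and 23 counts (1.15, 1.36 and 1.20 CPM) in the KO-labelled libraries, 13, 11 and 9 counts (0.617, 0.646 and 0.432 CPM) in the 4OHT control and 6, 8 and 11 counts (0.273, 0.350 and 0.657 CPM) in the ethanol control. Again no control library reached the lowest KO-labelled library. For Hoxd13 the log2 fold change was 1.58 ± 0.32 (adjusted p = 0.0021) against the ethanol control and 1.13 ± 0.31 (adjusted p = 0.0088) against the 4OHT control. None of these 4 genes was called in the 4OHT control against the ethanol control. Tbx2, a T-box repressor of heart and limb development, differed from them. It had 22, 20 and 21 counts (0.934, 0.973 and 1.09 CPM) in the KO-labelled libraries, 10, 7 and 12 counts (0.474, 0.411 and 0.576 CPM) in the 4OHT control and 23, 18 and 14 counts (1.05, 0.787 and 0.837 CPM) in the ethanol control. Only the 4OHT control stood lower, so its log2 fold change was 1.01 ± 0.29 (adjusted p = 0.012) against the 4OHT control and 0.16 ± 0.26 (adjusted p = 0.70) against the ethanol control. The call against the 4OHT control ended with DESeq2 (adjusted p = 0.066). With the replicate block Tbx2 was called lower in the 4OHT control than in the ethanol control (−0.87, adjusted p = 0.039).

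Of 35 Hox genes outside the members, 1 was tested and was not called against either control. The 34 that did not pass the filter on low counts had at most 11 counts in any library, and together 266 counts in the KO-labelled libraries, 182 in the 4OHT control and 156 in the ethanol control. Direct Hox and Evx neighbours of the members were at this level too. Hoxb8 had 2, 2 and 0 counts summed over the KO-labelled, 4OHT control and ethanol control libraries, and Hoxb13 14, 9 and 7. Hoxd12 had 4, 1 and 1, Evx2 2, 0 and 0, and Hoxc12 3, 4 and 7. Of 53 tested genes that lie next to a member of any lineage, 8 rose and 8 fell against the ethanol control, and 11 rose and 8 fell against the 4OHT control (13.0% and 14.2%, and 19.1% and 19.8%, of all genes). Of 12 other T-box genes, 6 were tested. Against the ethanol control 1 rose and none fell, beside 13.0% and 14.2% of all genes. Against the 4OHT control 2 rose and 1 fell, beside 19.1% and 19.8%. The one that rose against the ethanol control was Tbx15, a skeletal and limb T-box factor, with 0.80 CPM in the KO-labelled libraries, 0.27 CPM in the 4OHT control and 0.23 CPM in the ethanol control (1.75 ± 0.45 on the log2 scale relative to ethanol, adjusted p = 0.0093). Both counts of rises include Tbx15, and its mean in each control was under the filter's 0.468 CPM. It could pass only with the KO-labelled libraries, where it is high, so its rise is no support.

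Of the 7 tested endoderm genes 4 rose and none fell against the ethanol control, beside 13.0% and 14.2% of all genes. Against the 4OHT control 5 rose and none fell, beside 19.1% and 19.8%. Both counts of rises include Sox17, which passed the filter only through the KO-labelled libraries. Gata6 (ENSMUSG00000005836.8), the zinc finger factor that sets primitive endoderm against epiblast fate, had 80, 91 and 59 counts (3.40, 4.43 and 3.07 CPM) in the KO-labelled libraries, 26, 19 and 33 counts (1.23, 1.12 and 1.58 CPM) in the 4OHT control and 43, 27 and 27 counts (1.96, 1.18 and 1.61 CPM) in the ethanol control. All KO-labelled libraries were above all controls. On the log2 scale it stood at 1.20 ± 0.22 (adjusted p = 0.0010) against the ethanol control and 1.46 ± 0.23 (adjusted p = 1.4e-04) against the 4OHT control. Gata4, its partner in primitive endoderm and heart, had 119, 57 and 71 counts (5.05, 2.77 and 3.69 CPM) in the KO-labelled libraries, 43, 37 and 56 counts (2.04, 2.17 and 2.69 CPM) in the 4OHT control and 67, 43 and 24 counts (3.05, 1.88 and 1.43 CPM) in the ethanol control. The groups overlapped here with ethanol control replicate 1. On the log2 scale the difference was 0.84 ± 0.26 (adjusted p = 0.029) against the ethanol control and 0.74 ± 0.26 (adjusted p = 0.037) against the 4OHT control. Without KO-labelled replicate 1 or 3 the Gata4 calls ended, at adjusted p of 0.16 and 0.051 against the ethanol control and 0.20 and 0.060 against the 4OHT control. They also ended without ethanol control replicate 2 (0.12) or 3 (0.10) in the first comparison, and in the second without replicate 1 (0.11) or 2 (0.097) of the 4OHT control.

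Sox17, an SRY-box factor of primitive and definitive endoderm, was scarce, with 19, 13 and 15 counts (0.806, 0.632 and 0.780 CPM) in the KO-labelled libraries, 7, 3 and 8 counts (0.332, 0.176 and 0.384 CPM) in the 4OHT control and 8, 8 and 6 counts (0.364, 0.350 and 0.359 CPM) in the ethanol control. The groups did not overlap, but the gene passed the filter only through the KO-labelled libraries, so this separation is no test. Its fitted log2 difference was 1.04 ± 0.34 (adjusted p = 0.031) against the ethanol control and 1.27 ± 0.35 (adjusted p = 0.0094) against the 4OHT control. The Sox17 call against the ethanol control ended with no filter on low counts (adjusted p = 0.066) and without KO-labelled replicate 1 (0.10) or 3 (0.072) or ethanol control replicate 1 (0.076), 2 (0.094) or 3 (0.072); that against the 4OHT control ended with DESeq2 (0.068). Foxa1 (ENSMUSG00000035451.6), a pioneer factor of gut and liver development, had 37, 40 and 25 counts (1.57, 1.95 and 1.30 CPM) in the KO-labelled libraries, 29, 25 and 23 counts (1.38, 1.47 and 1.10 CPM) in the 4OHT control and 13, 13 and 7 counts (0.592, 0.569 and 0.418 CPM) in the ethanol control. Here both 4OHT-treated groups stood above the ethanol control. The fitted log2 fold change was 1.58 ± 0.28 (adjusted p = 6.3e-04) against the ethanol control but 0.29 ± 0.24 (adjusted p = 0.35) against the 4OHT control, which itself stood at 1.28 ± 0.29 (adjusted p = 0.0054) over the ethanol control.

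Dab2 and Hnf4a separated mainly from the 4OHT control. Dab2 (ENSMUSG00000022150.9), an endocytic adaptor of visceral endoderm, had 253, 194 and 200 counts (10.7, 9.44 and 10.4 CPM) in the KO-labelled libraries, 135, 76 and 90 counts (6.40, 4.46 and 4.32 CPM) in the 4OHT control and 213, 180 and 106 counts (9.69, 7.87 and 6.33 CPM) in the ethanol control. The 4OHT control was the low group. The log2 fold change was 1.00 ± 0.17 (adjusted p = 2.3e-04) against the 4OHT control and 0.35 ± 0.16 (adjusted p = 0.12) against the ethanol control, where it passed with the replicate block (0.35, adjusted p = 0.010). Dab2 also fell in the 4OHT control against the ethanol control, −0.66 ± 0.17 (adjusted p = 0.014), a call that ended without 4OHT control replicate 2 or 3 (adjusted p = 0.060 each) or ethanol control replicate 1 (0.075). Hnf4a, the nuclear receptor that drives hepatocyte and visceral endoderm genes, had 82, 60 and 92 counts (3.48, 2.92 and 4.78 CPM) in the KO-labelled libraries, 51, 34 and 52 counts (2.42, 2.00 and 2.50 CPM) in the 4OHT control and 70, 66 and 45 counts (3.19, 2.89 and 2.69 CPM) in the ethanol control. The KO-labelled libraries overlapped with the ethanol control but not with the 4OHT control. Its log2 fold change was 0.68 ± 0.20 (adjusted p = 0.014) against the 4OHT control, ending without KO-labelled replicate 3 (0.082) or 4OHT control replicate 2 (0.054), and 0.34 ± 0.19 (adjusted p = 0.21) against the ethanol control. Sox7, a parietal endoderm factor, ranged over 15 to 45 counts in the KO-labelled libraries, 18 to 26 in the 4OHT control and 17 to 39 in the ethanol control and was not called. Foxa2, a node and definitive endoderm factor, had at most 6 counts in any library and was not tested.

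Other endoderm genes changed in both directions. Of 25 further endoderm and basement membrane genes, 20 were tested. Against the ethanol control 1 rose and 4 fell, beside 13.0% and 14.2% of all genes. Against the 4OHT control 9 rose and 3 fell, beside 19.1% and 19.8%. Fgfr4, an FGF receptor of primitive endoderm and liver, rose in both, with 6.48 CPM in the KO-labelled libraries, 2.38 CPM in the 4OHT control and 3.05 CPM in the ethanol control (1.08 ± 0.17 on the log2 scale relative to ethanol, adjusted p = 2.7e-04). Nid1, a basement membrane linker, fell in both, with 132 CPM in the KO-labelled libraries, 199 CPM in the 4OHT control and 172 CPM in the ethanol control (−0.38 ± 0.09 relative to ethanol, adjusted p = 0.0072). Lama1, the laminin chain of the early basement membrane, had 210 CPM in the KO-labelled libraries, 122 CPM in the 4OHT control and 249 CPM in the ethanol control. It fell against the ethanol control (−0.25 ± 0.07, adjusted p = 0.015) and rose against the 4OHT control (0.78 ± 0.07, adjusted p = 4.2e-07).

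Of the 4 neural genes 1 rose and none fell against the ethanol control, beside 13.0% and 14.2% of all genes. Against the 4OHT control 2 rose and 1 fell, beside 19.1% and 19.8%. Neurod1 (ENSMUSG00000034701.8), a basic helix-loop-helix factor of neurons and pancreatic islets, was among the most abundant members and differed between all 3 groups. It had 712, 807 and 782 counts (30.2, 39.3 and 40.7 CPM) in the KO-labelled libraries, 227, 153 and 211 counts (10.8, 8.99 and 10.1 CPM) in the 4OHT control and 436, 619 and 465 counts (19.8, 27.1 and 27.8 CPM) in the ethanol control. The groups stood in 3 separate ranges, with the 4OHT control lowest. This gave a log2 fold change of 0.56 ± 0.14 (adjusted p = 0.0088) against the ethanol control and 1.87 ± 0.15 (adjusted p = 9.0e-07) against the 4OHT control, which itself was at −1.31 ± 0.15 (adjusted p = 7.2e-05) against the ethanol control. Neurod1 overlaps Cerkl on the same strand in the annotation, and Cerkl had 145, 74 and 146 counts summed over the KO-labelled, 4OHT control and ethanol control libraries. Pax6, the paired-box factor of eye and forebrain, had 345, 343 and 335 counts (14.6, 16.7 and 17.4 CPM) in the KO-labelled libraries, 356, 386 and 456 counts (16.9, 22.7 and 21.9 CPM) in the 4OHT control and 363, 357 and 347 counts (16.5, 15.6 and 20.7 CPM) in the ethanol control. The KO-labelled libraries overlapped with both controls. Pax6 fell against the 4OHT control, −0.33 ± 0.13 (adjusted p = 0.049), and was at −0.11 ± 0.13 (adjusted p = 0.55) against the ethanol control. It was the only member that fell in either comparison with the KO-labelled libraries; under alternatives Nes and Bmp4 were also called lower, as given with each. The call ended under 7 of 16 alternatives, with adjusted p up to 0.17: with library totals, with a filter at 1 CPM, and without KO-labelled replicate 1 or 2, 4OHT control replicate 2 or 3, or ethanol control replicate 1.

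Irx3, an Iroquois factor of the neural tube, had 47, 25 and 47 counts (1.99, 1.22 and 2.44 CPM) in the KO-labelled libraries, 18, 13 and 24 counts (0.854, 0.764 and 1.15 CPM) in the 4OHT control and 20, 16 and 28 counts (0.910, 0.700 and 1.67 CPM) in the ethanol control. The KO-labelled libraries were above the 4OHT control and overlapped with the ethanol control. On the log2 scale it stood at 1.01 ± 0.33 (adjusted p = 0.024) against the 4OHT control and 0.83 ± 0.32 (adjusted p = 0.068) against the ethanol control, where it passed with the replicate block (0.81, adjusted p = 0.0054). The call against the 4OHT control ended without KO-labelled replicate 1 (adjusted p = 0.070) or 3 (0.097) or 4OHT control replicate 1 (0.067) or 2 (0.079). The antisense transcript Irx3os had 27 counts in the KO-labelled libraries, 7 in the 4OHT control and 8 in the ethanol control; whether reads were counted by strand is not stated, so the pair's reads may be mixed. Nes, which encodes the intermediate filament nestin of neural progenitors, had 700, 651 and 802 counts (29.7, 31.7 and 41.7 CPM) in the KO-labelled libraries, 816, 702 and 1007 counts (38.7, 41.2 and 48.4 CPM) in the 4OHT control and 604, 712 and 591 counts (27.5, 31.1 and 35.3 CPM) in the ethanol control. The 4OHT control was the high group. Nes rose in the 4OHT control against the ethanol control, 0.45 ± 0.14 (adjusted p = 0.040), a call that ended without KO-labelled replicate 2 (0.066), 4OHT control replicate 2 (0.094) or 3 (0.13), or ethanol control replicate 1 or 2 (0.13 each). With the replicate block it was also lower in the KO-labelled libraries than in the 4OHT control (log2 fold change −0.32, adjusted p = 1.7e-05), as it was with no filter (−0.32, adjusted p = 4.7e-04), with DESeq2 (−0.33, adjusted p = 0.034) and without KO-labelled replicate 3 (−0.48, adjusted p = 0.0036). With the block Pax6 was higher in the 4OHT control than in the ethanol control (0.22, adjusted p = 0.047). Of 27 other neural genes 12 were tested. Irx5, a relative of Irx3, was the only one called against the ethanol control, at 1.15 ± 0.30 on the log2 scale (adjusted p = 0.010). Of all genes 27.2% were called in that comparison. Against the 4OHT control 2 rose and 4 fell, beside 19.1% and 19.8% of all genes.

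**Figure D4:**
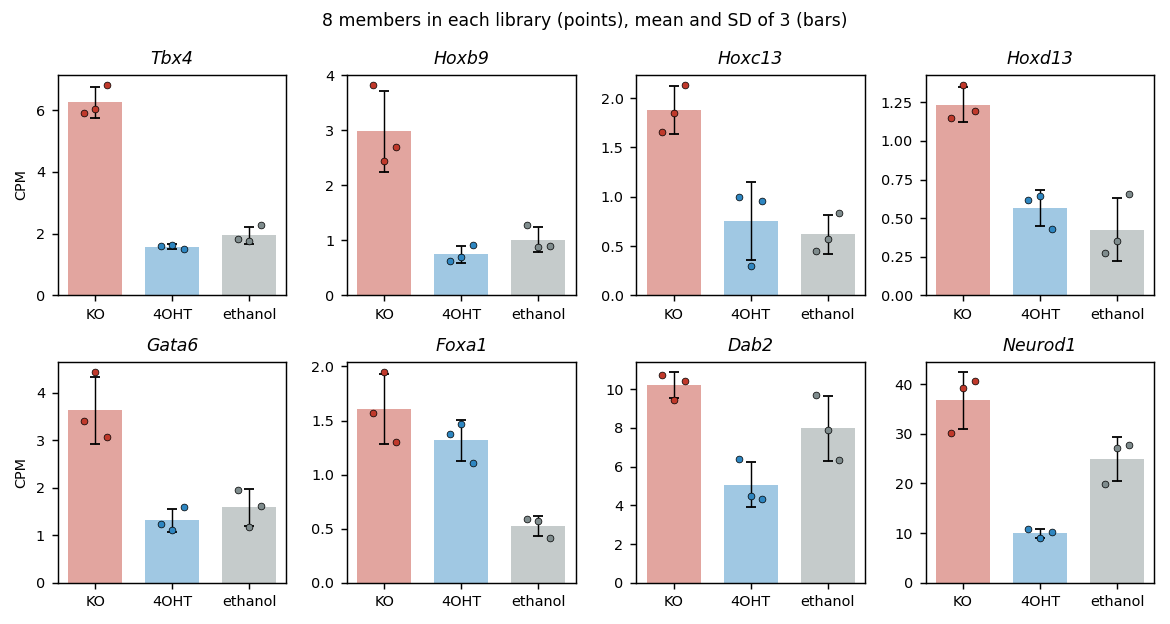
CPM of 8 members in each library, with the KO-labelled libraries on the left, the 4OHT control in the middle and the ethanol control on the right; bars and error bars give the mean and SD of 3 libraries and each panel has its own axis from 0. Tbx4 averaged 6.25, 1.58 and 1.95 CPM in that order, whereas Foxa1 is raised in both 4OHT-treated groups (1.61 and 1.32 CPM, against 0.526 CPM with ethanol) and Dab2 is lowest in the 4OHT control (10.2, 5.06 and 7.97 CPM).

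Trophoblast genes were mostly scarce, and 2 rose against both controls, a count with no share of all genes beside it. Of the 7 tested, 2 rose and none fell against the ethanol control, beside 13.0% and 14.2% of all genes. Against the 4OHT control 5 rose and none fell, beside 19.1% and 19.8%. Those 5 include Elf5, which passed the filter only through the KO-labelled libraries. Gata2, a zinc finger factor of trophoblast giant cells and blood progenitors, had 76, 75 and 51 counts (3.23, 3.65 and 2.65 CPM) in the KO-labelled libraries, 48, 32 and 53 counts (2.28, 1.88 and 2.55 CPM) in the 4OHT control and 44, 50 and 29 counts (2.00, 2.19 and 1.73 CPM) in the ethanol control. All KO-labelled libraries were above all controls, by a small margin over the 4OHT control. On the log2 scale the difference was 0.68 ± 0.19 (adjusted p = 0.017) against the ethanol control and 0.50 ± 0.19 (adjusted p = 0.049) against the 4OHT control. The first call ended without KO-labelled replicate 1 (adjusted p = 0.054) or 2 (0.073) or ethanol control replicate 3 (0.063). The second ended under 11 of 16 alternatives, with adjusted p up to 0.18, among them the removal of KO-labelled replicate 1 or 2, of 4OHT control replicate 1 or 2, or of any ethanol control library. Krt7, a keratin of trophoblast and simple epithelia, had 55, 26 and 34 counts (2.33, 1.26 and 1.77 CPM) in the KO-labelled libraries, 29, 14 and 17 counts (1.38, 0.822 and 0.816 CPM) in the 4OHT control and 23, 21 and 16 counts (1.05, 0.918 and 0.956 CPM) in the ethanol control. KO-labelled replicate 2 overlapped with the highest 4OHT control library. The log2 fold change of Krt7 was 0.88 ± 0.28 (adjusted p = 0.029) against the ethanol control and 0.83 ± 0.28 (adjusted p = 0.030) against the 4OHT control. Both calls ended with DESeq2 (0.066 and 0.071) and without KO-labelled replicate 1 (0.17 in both) or 3 (0.052 in both). They also ended without ethanol control replicate 1 (0.054), 2 (0.098) or 3 (0.069) in the first comparison, and in the second without replicate 2 (0.095) or 3 (0.11) of the 4OHT control.

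Tfap2c, which encodes the AP-2 gamma factor of trophoblast and germ cells and is also expressed in ES cells, had the highest level of all members. It had 1394, 1301 and 1263 counts (59.2, 63.3 and 65.7 CPM) in the KO-labelled libraries, 1024, 629 and 1198 counts (48.6, 37.0 and 57.5 CPM) in the 4OHT control and 1460, 1504 and 1243 counts (66.4, 65.8 and 74.3 CPM) in the ethanol control. The 4OHT control was the low group, with replicate 2 lowest. Tfap2c was at 0.39 ± 0.13 (adjusted p = 0.036) in the KO-labelled libraries against the 4OHT control, at −0.13 ± 0.13 (adjusted p = 0.47) against the ethanol control, and at −0.52 ± 0.13 (adjusted p = 0.018) in the 4OHT control against the ethanol control. The rise against the 4OHT control ended under 7 of 16 alternatives, with adjusted p up to 0.11: in a fit of the 2 groups alone, and without KO-labelled replicate 1, 2 or 3, 4OHT control replicate 1, or ethanol control replicate 1 or 2. The fall in the 4OHT control ended in the fit of 2 groups (0.052) and without 4OHT control replicate 1 (0.056) or ethanol control replicate 3 (0.062). Krt8, another simple-epithelial keratin, had 334, 227 and 183 counts (14.2, 11.0 and 9.52 CPM) in the KO-labelled libraries, 207, 109 and 112 counts (9.82, 6.40 and 5.38 CPM) in the 4OHT control and 250, 221 and 118 counts (11.4, 9.66 and 7.05 CPM) in the ethanol control. Its groups overlapped. Krt8 rose against the 4OHT control, 0.69 ± 0.24 (adjusted p = 0.047), a call that ended without KO-labelled replicate 1 (0.15) or 2 (0.094), 4OHT control replicate 2 (0.15) or 3 (0.13), or ethanol control replicate 2 (0.069). It was at 0.30 ± 0.24 (adjusted p = 0.38) against the ethanol control and passed there with the replicate block (0.30, adjusted p = 0.012), as it did downward in the 4OHT control against the ethanol control (−0.38, adjusted p = 0.0050). A processed copy, Krt8-ps, could share its reads.

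Elf5, an ETS factor of trophoblast stem cells, had 14, 10 and 15 counts (0.594, 0.486 and 0.780 CPM) in the KO-labelled libraries, 7, 4 and 6 counts (0.332, 0.235 and 0.288 CPM) in the 4OHT control and 8, 11 and 7 counts (0.364, 0.481 and 0.418 CPM) in the ethanol control. The KO-labelled libraries were all above the controls, but the gene passed the filter only through them, so this separation is no test. Its fitted log2 difference was 1.08 ± 0.37 (adjusted p = 0.028) against the 4OHT control and 0.54 ± 0.33 (adjusted p = 0.26) against the ethanol control. The call ended with no filter (adjusted p = 0.068), with DESeq2 (0.14), and without KO-labelled replicate 1 (0.058) or 3 (0.10) or 4OHT control replicate 2 (0.088) or 3 (0.074). Cdx2, the caudal factor that sets trophectoderm fate, ranged over 8 to 14 counts in the KO-labelled libraries, 10 to 12 in the 4OHT control and 4 to 6 in the ethanol control. It was not called, although with the replicate block it was higher in the 4OHT control than in the ethanol control (1.10, adjusted p = 0.047). Gata3, a trophectoderm factor that acts beside Cdx2, ranged over 12 to 44 counts in the KO-labelled libraries, 11 to 28 in the 4OHT control and 6 to 41 in the ethanol control, with replicate 3 lowest in each group, and was not called. Of 20 other trophoblast genes, 17 were tested. Against the ethanol control 1 rose and 1 fell, beside 13.0% and 14.2% of all genes. Against the 4OHT control 3 rose and 1 fell, beside 19.1% and 19.8%. Zfp703, a zinc finger repressor, rose against the ethanol control, with 2.50 CPM in the KO-labelled libraries, 1.60 CPM in the 4OHT control and 1.46 CPM in the ethanol control (0.76 ± 0.24, adjusted p = 0.027).

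Of the 13 tested mesoderm and primitive streak genes, 1 rose and none fell in each comparison with the KO-labelled libraries. The shares of all genes were 13.0% and 14.2% against the ethanol control, and 19.1% and 19.8% against the 4OHT control. With the replicate block 3 were called higher and 1 lower against the ethanol control, and 7 higher and 1 lower against the 4OHT control, where 20.4% and 22.3%, and 25.5% and 25.9%, of all genes were. Among the ligands, Bmp4, the BMP that induces mesoderm and germ cells, was the most abundant, with 337, 334 and 188 counts (14.3, 16.2 and 9.78 CPM) in the KO-labelled libraries, 528, 345 and 259 counts (25.0, 20.3 and 12.4 CPM) in the 4OHT control and 493, 385 and 190 counts (22.4, 16.8 and 11.4 CPM) in the ethanol control. In every group replicate 3 was the lowest and the groups overlapped. The fitted log2 fold change was −0.34 ± 0.35 (adjusted p = 0.53) against the ethanol control and −0.51 ± 0.35 (adjusted p = 0.29) against the 4OHT control. With the replicate block both passed downward (−0.32, adjusted p = 0.0077 and −0.51, adjusted p = 5.3e-05), and also with no filter (−0.34, adjusted p = 0.010 and −0.52, adjusted p = 1.2e-05). Fgf8, the ligand needed for migration through the streak, had 7 to 13 counts in the KO-labelled libraries, 9 to 11 in the 4OHT control and 4 to 11 in the ethanol control. Of the receptors, Kdr, the VEGF receptor of blood and vessel precursors, had 83 to 139, 48 to 135 and 65 to 142 counts in the same order of groups, and Pdgfra, the PDGF receptor of paraxial and extraembryonic mesoderm, 48 to 71, 36 to 43 and 36 to 50. Neither was called, and with the replicate block both were higher in the KO-labelled libraries than in the 4OHT control (Kdr 0.40, adjusted p = 0.040; Pdgfra 0.49, adjusted p = 0.034).

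Snai1 and Hand1 were the mesodermal factors called, each against a single control. Snai1, the zinc finger repressor of E-cadherin that acts in gastrulation, had 74, 54 and 52 counts (3.14, 2.63 and 2.70 CPM) in the KO-labelled libraries, 43, 39 and 32 counts (2.04, 2.29 and 1.54 CPM) in the 4OHT control and 27, 43 and 31 counts (1.23, 1.88 and 1.85 CPM) in the ethanol control. Every KO-labelled library was above every control library. Snai1 rose against the ethanol control, 0.78 ± 0.22 (adjusted p = 0.014), and was at 0.54 ± 0.21 (adjusted p = 0.055) against the 4OHT control, where it passed with the replicate block (0.54, adjusted p = 0.021). The call against the ethanol control ended without KO-labelled replicate 1 (adjusted p = 0.067) or ethanol control replicate 1 (0.073). Hand1, a helix-loop-helix factor of extraembryonic and lateral mesoderm and of trophoblast giant cells, had 75, 51 and 23 counts (3.18, 2.48 and 1.20 CPM) in the KO-labelled libraries, 31, 14 and 13 counts (1.47, 0.822 and 0.624 CPM) in the 4OHT control and 34, 36 and 16 counts (1.55, 1.57 and 0.956 CPM) in the ethanol control. KO-labelled replicate 3 lay within the range of both controls. Hand1 rose against the 4OHT control, 1.24 ± 0.37 (adjusted p = 0.017), a call that ended without KO-labelled replicate 1 (0.090) or 2 (0.052) or 4OHT control replicate 2 (0.062) or 3 (0.069). Against the ethanol control it was at 0.74 ± 0.35 (adjusted p = 0.13) and passed with the replicate block (0.75, adjusted p = 0.0048).

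Without the replicate block the streak genes themselves showed no difference past the test. T (brachyury), which defines the primitive streak, ranged over 5 to 23 counts in the KO-labelled libraries, 13 to 26 in the 4OHT control and 6 to 21 in the ethanol control. In that order of groups, Mixl1, a streak homeobox gene, ranged over 18 to 20, 14 to 30 and 11 to 22 counts, and Eomes, a T-box factor of streak and trophoblast, over 61 to 97, 58 to 102 and 51 to 95. Gsc, the organizer homeobox gene goosecoid, ranged over 7 to 20, 3 to 9 and 4 to 13 counts, with 1.02 ± 0.47 (adjusted p = 0.12) against the ethanol control and 1.02 ± 0.48 (adjusted p = 0.10) against the 4OHT control. With the replicate block Gsc was called higher against both (0.97, adjusted p = 0.039 and 1.05, adjusted p = 0.022). Of the paraxial and posterior genes, Tbx6 ranged over 39 to 46, 16 to 30 and 29 to 37 counts and the caudal gene Cdx1 over 5 to 20, 10 to 16 and 6 to 15. Snai2, a relative of Snai1, ranged over 31 to 35, 13 to 24 and 17 to 35 counts. With the block Tbx6 (0.60, adjusted p = 0.032) and Snai2 (0.62, adjusted p = 0.044) were called higher than in the 4OHT control. Of the members too scarce to be tested, Lhx1, a LIM homeobox factor of the organizer and kidney, had 10, 19 and 9 counts in the KO-labelled libraries, 2, 3 and 7 in the 4OHT control and 4, 5 and 4 in the ethanol control. With no filter on low counts it was called higher (adjusted p = 0.019 against the ethanol control and 0.012 against the 4OHT control). Evx1, a posterior streak homeobox gene, ranged over 4 to 9, 1 to 15 and 1 to 5 counts and Mesp1, which marks the earliest cardiac mesoderm, over 2 to 4, 0 to 6 and 2 to 5.

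Signals upstream of the streak were among the genes outside the members that rose. Of 26 further mesoderm and streak genes 18 were tested. Against the ethanol control 4 rose and none fell, beside 13.0% and 14.2% of all genes. Against the 4OHT control 6 rose and 3 fell, beside 19.1% and 19.8%. Nodal, the TGF-beta family ligand that patterns the streak and is expressed in ES cells, had 120 CPM in the KO-labelled libraries, 64.4 CPM in the 4OHT control and 58.7 CPM in the ethanol control. Its log2 fold change was 1.03 ± 0.08 (adjusted p = 1.3e-07) against the ethanol control and 0.90 ± 0.08 (adjusted p = 3.5e-07) against the 4OHT control. Wnt3, the Wnt ligand required for streak formation, had 2.66 CPM in the KO-labelled libraries, 0.852 CPM in the 4OHT control and 0.754 CPM in the ethanol control (1.82 ± 0.23 on the log2 scale relative to ethanol, adjusted p = 3.2e-05). Wnt8a, another streak Wnt, had 2.12 CPM in the KO-labelled libraries, 0.481 CPM in the 4OHT control and 0.889 CPM in the ethanol control (1.27 ± 0.30 relative to ethanol, adjusted p = 0.0051). T, Mixl1 and Eomes, which lie downstream of these signals in the embryo, were not called in the same libraries.

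Markers of another cell type differed between the 4OHT control and both other groups. The 10 fibroblast markers summed to 62.7 to 73.8 CPM in the KO-labelled libraries, 42.0 to 50.6 CPM in the 4OHT control and 61.6 to 75.7 CPM in the ethanol control. Of the 6 that were tested none was called against the ethanol control, beside 27.2% of all genes. Against the 4OHT control 4 rose and 1 fell, beside 19.1% and 19.8%. In the 4OHT control against the ethanol control 1 rose and 4 fell, beside 9.66% and 8.75%. Line and drug differ together there and cannot be told apart. The log2 fold changes of the 6 tested markers against the 4OHT control ran from −0.65 to 3.20, with a median of 0.73. Acta2 was named after its values were seen and is part of the summed levels. It was at 11.0 CPM in the KO-labelled libraries, 1.17 CPM in the 4OHT control and 10.9 CPM in the ethanol control. Lum was at 0 in the ethanol control libraries and had at most 1 count elsewhere, and Col3a1, Dcn and Postn had at most 11 counts. Dab2, Tbx2, Tfap2c and Neurod1, which were lowest in the 4OHT control, differed in the same comparison as these markers; the part of the markers in their calls was not tested.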

How the data were processed

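RNA depleted of ribosomal RNA was sequenced from 9 libraries of mouse ES cells, in 3 groups of 3 taken from the titles. Per the labels' protocols the libraries were directional. The authors deposited raw counts per gene, 1 table per library under versioned Ensembl identifiers; the submitters' processing notes name HTSeq, STAR, edgeR and cutadapt, the build mm9, and also Bowtie 1.1.2, MACS2 and DiffBind, with no roles, settings or strand option. Rows that name no gene (26.4% to 33.8% of reads without a feature and 0.78% to 0.908% ambiguous) stayed out of totals and tests. Names, exon lengths and neighbours came from GENCODE M21, a later assembly, and 32620 of the 37310 rows matched a symbol.

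The counts were fitted with edgeR 4.0.16 (R 4.3.3, limma 3.58.1): TMM factors, filterByExpr by group, robust quasi-likelihood F tests on 3 group means with 6 residual degrees of freedom, and Benjamini-Hochberg adjustment over all 16224 genes tested. Each adjusted p is from this fit unless an alternative is named, and "rose" and "fell" mean an adjusted p under 0.05. Standard errors were derived from the F statistic. CPM are edgeR's. The code was tested on simulated data with 200 changed genes.

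The replicate numbers, shared by the groups in the titles, pair the libraries: deviations from group means correlated at 0.109 to 0.311 in each of the 9 same-number pairs, and at −0.225 to −0.022 in the 18 others. For each gene the deviations of a group sum to 0, so positive same-number values push the others below 0. The second range is therefore no separate sign of pairing. The alternatives were RLE factors, library totals, no filter, a filter at 1 CPM in 3 libraries, DESeq2 1.42.0, a fit of 2 groups, the replicate block, and each library left out. Counts and CPM in each library are printed for members called in any comparison and for the most abundant tested member of each lineage, and other members by range; from each further list up to 3 called genes with the smallest p are named, and some genes of these lists are not reported here. Neighbours, overlapping genes, Lhx1 and Acta2 were named after their values were seen. The members and lists were chosen with earlier results of these data known.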

Additional observations from a re-analysis of the deposited data

How the results depend on the processing

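With the replicate number as a block, the genes called went to 6936 in KO-labelled libraries against the ethanol control (4417 without the block) and to 5323 in the 4OHT control against the ethanol control (2987), and the members called there to 9 (5). The block ended no call of a member or named gene, and the calls it added are given beside each member. With each library left out in turn, the genes called ranged from 1974 (without ethanol control replicate 2) to 3069 in the 4OHT control against the ethanol control. The members called ranged from 7 (without KO-labelled replicate 1) to 13 against the ethanol control, from 10 (without KO-labelled replicate 1) to 19 against the 4OHT control, and from 3 (without 4OHT control replicate 2 or 3, or ethanol control replicate 1) to 5 in the 4OHT control against the ethanol control. Library totals in place of TMM moved the split of all genes against the ethanol control to 3038 higher and 1527 lower (2110 and 2307 with TMM) and against the 4OHT control to 4215 and 2328 (3103 and 3216), with median log2 fold changes of 0.0852 and 0.1038 (0.0143 and 0.0207). Zbtb11 was called higher against the ethanol control with library totals (log2 fold change 0.1563, adjusted p = 0.013) and with the block (0.0859, adjusted p = 0.032), and against the 4OHT control with library totals (0.12, adjusted p = 0.036). The cause of these shifts was not tested. Counts near 10 per library limit what can be shown for Sox17, Elf5, Cdx2, Gsc, Fgf8 and the 4 members that were not tested. For T the standard error of the log2 fold change was 0.45 against the ethanol control and 0.42 against the 4OHT control. A sizeable change in T could therefore go uncalled.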
